A study of Mus musculus with 6 samples.

Results

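The transforming growth factor beta (TGF-beta) pathway was examined through 10 genes of its core, taken by symbol from the 22063 genes of a table of mouse macrophage transcriptomes. They are the ligand Tgfb1, the receptors Tgfbr1 and Tgfbr2, the signal carriers Smad2, Smad3 and Smad4, the inhibitors Smad7, Smurf2 and Ski, and Tgfbi, which encodes a secreted matrix protein named for its induction by TGF-beta. The macrophages all carried a chimeric antigen receptor (CAR), an engineered protein that lets a cell recognise a selected surface molecule, delivered by lentivirus. All were grown for 7 days in DMEM with 20 ng/mL of M-CSF, a cytokine that macrophages need to develop and survive, and the labels give skin as the tissue. The 3 CAR-Ms samples are labelled WT. The 3 CAR-Trem2-Ms samples carry the genotype label TERM2+ and, in their own treatment label, 1 µM VD3 for 24 h and sorting by flow cytometry. A protocol common to all samples names VD3 as well, so the labels do not settle whether CAR-Ms received it. Trem2 status, the sort and possibly VD3 cannot be told apart as sources of a difference between the groups. The study concerns scars and the fibrotic environment around them, in which TGF-beta made by macrophages is one of the best known signals.

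TGF-beta is secreted in a latent form and becomes active when integrins or proteases free it from its latency peptide. The active ligand binds the type II receptor, encoded by Tgfbr2, which recruits and phosphorylates the type I receptor, encoded by Tgfbr1. The type I receptor phosphorylates SMAD2 and SMAD3, which bind SMAD4, enter the nucleus and change the transcription of target genes. SMAD7 and the ubiquitin ligase SMURF2 shut the receptors down, and SKI is a nuclear repressor that binds SMAD complexes. In wound repair, macrophages release TGF-beta that drives fibroblasts to lay down collagen, and they also respond to it themselves.

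Total counts, in units of 1e6, were 14.2 to 15.91 in CAR-Ms, against 9.8 to 12.56 in CAR-Trem2-Ms. Levels are given as counts per 1e6 with TMM factors (CPM) unless a sentence names TPM, which is also scaled for gene length. Trem2, the receptor named by the label, stood at 78.7, 74.1 and 77.0 CPM in CAR-Ms and at 196.0, 195.1 and 182.5 CPM in CAR-Trem2-Ms. Taken as a sum, macrophage markers were abundant in both groups: the summed CPM of 15 macrophage markers was 4148 to 4179 in CAR-Ms, against 5848 to 5964 in CAR-Trem2-Ms. For 11 fibroblast markers the sums were 2.65 to 3.10 CPM and 5.85 to 6.38 CPM. Of the 12 macrophage markers tested, 10 were higher and 2 (Csf1r and Cd68) lower in CAR-Trem2-Ms, against 40.9% and 40.1% of all genes tested. In mean TPM, Fcgr1, Cd14, Spi1, Cebpb and Lgals3 were higher too, while Adgre1, Lyz2, Itgam, Msr1 and Tyrobp were lower. The macrophage markers Mrc1, Mertk and C1qa were near absent, with group means of at most 0.74 CPM. The libraries also differed in composition: mitochondrially encoded genes took 4.6% to 4.7% of counts in CAR-Ms, against 13.4% to 13.8% in CAR-Trem2-Ms, and 10 neutrophil and precursor markers summed to 19.6 to 35.9 CPM in CAR-Ms, against 3.50 to 7.65 CPM in CAR-Trem2-Ms, with 0 of 6 tested higher and 5 lower. Markers of platelets, which store much TGF-beta, summed to 7.58 to 10.6 CPM in CAR-Ms and to 9.90 to 12.2 CPM in CAR-Trem2-Ms over 8 genes; of 3 tested, Treml1 rose from 0.16 to 6.07 CPM while Itga2b fell from 6.28 to 2.96 CPM and Gp1ba from 2.71 to 1.58 CPM. Those of T cells summed to 21.2 to 24.7 CPM and 19.7 to 29.5 CPM over 10 genes, mostly Lck, which fell from 20.8 to 15.5 CPM; Cd3d, Cd8a and Trac rose from at most 0.11 CPM to 1.21, 1.77 and 1.29 CPM. Dendritic cell markers came to 2.57 to 2.90 CPM and 3.16 to 4.93 CPM over 8 genes, and keratinocyte and endothelial markers to 4.46 to 6.61 CPM and 2.01 to 3.29 CPM over 9 genes. The part of these shifts in the results on TGF-beta genes was not tested. In bulk RNA, fewer cells of a type and less RNA per cell cannot be told apart.

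CAR-Trem2-Ms held less RNA of both receptors, all 3 signal carriers and all 3 inhibitors than CAR-Ms, while RNA of the ligand Tgfb1 took a larger share of counts, a direction that did not hold on TPM. Of the 10 genes, 9 had enough reads to be tested, and the exception was Tgfbi. The edgeR test (adjusted p under 0.05 over all tested genes) called 1 higher and 8 lower, and 7 of the 8 fell by at least 2-fold. The background for these counts is high, because the groups differed at most genes: 81.1% of the 11402 genes tested were called in either direction, 40.9% higher and 40.1% lower, and 14.3% were lower by at least 2-fold. The CPM of the groups did not overlap for any of the 9 tested genes, which was true of 81.8% of all genes tested. A call alone therefore says little about these genes. Their median log2 fold change was −1.23, against 0.03 over all genes tested. On counts Smad3 fell furthest among them, Smurf2, Tgfbr1 and Smad4 followed, and Smad2 fell least.

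**Figure D1:**
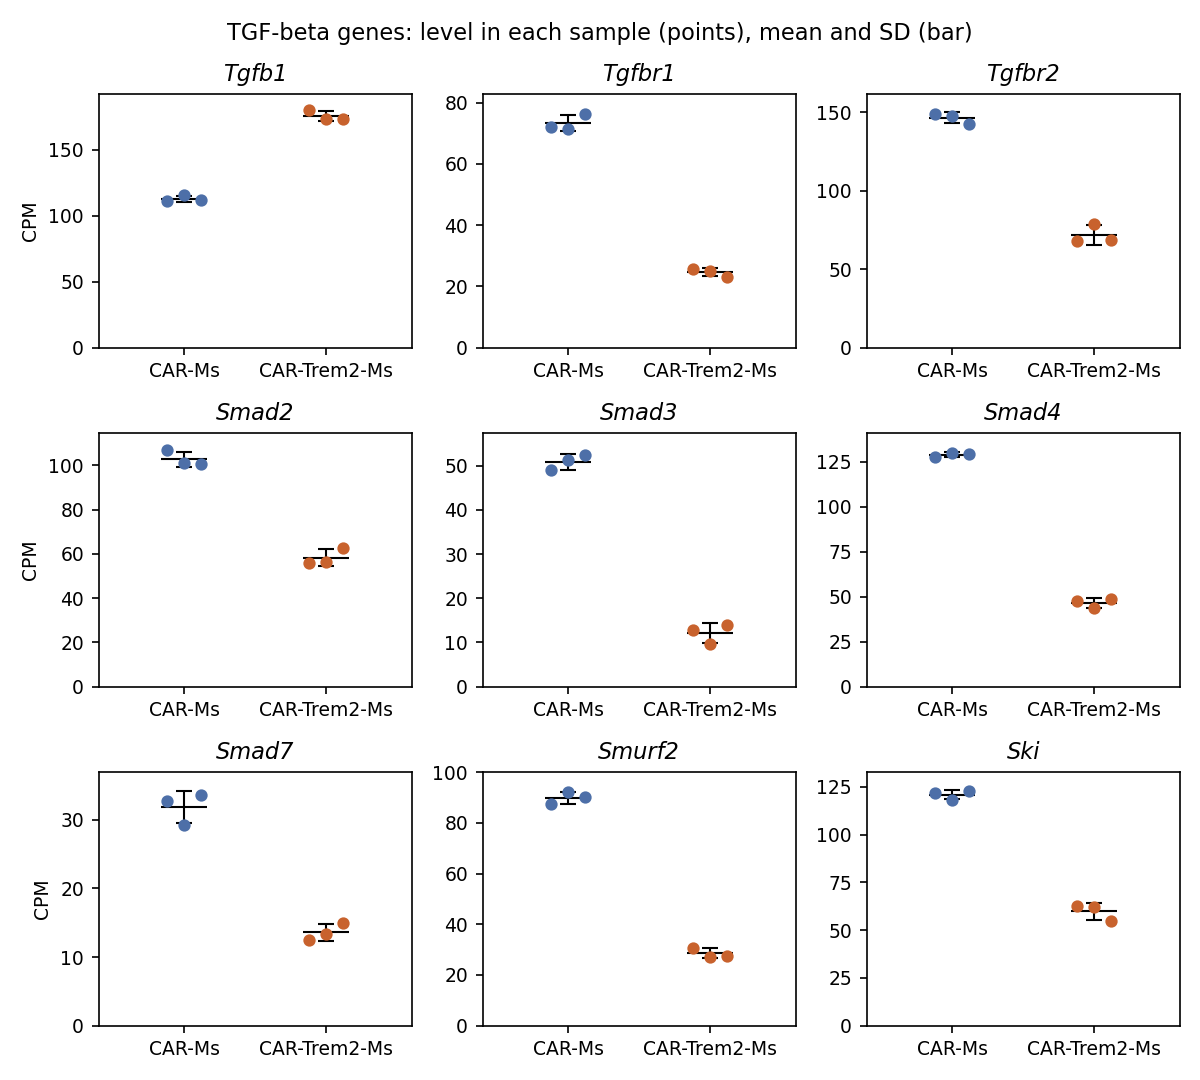
Each panel plots 1 TGF-beta gene, with CPM on the vertical axis, 1 point per sample for the 3 CAR-Ms (blue) and 3 CAR-Trem2-Ms (orange), the mean as a bar and the SD as whiskers. The orange points of Tgfb1 lie above the blue ones, from 173.4 to 180.1 against 110.9 to 115.6 CPM, and in the other 8 panels every orange point lies below every blue one.

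**Figure D2:**
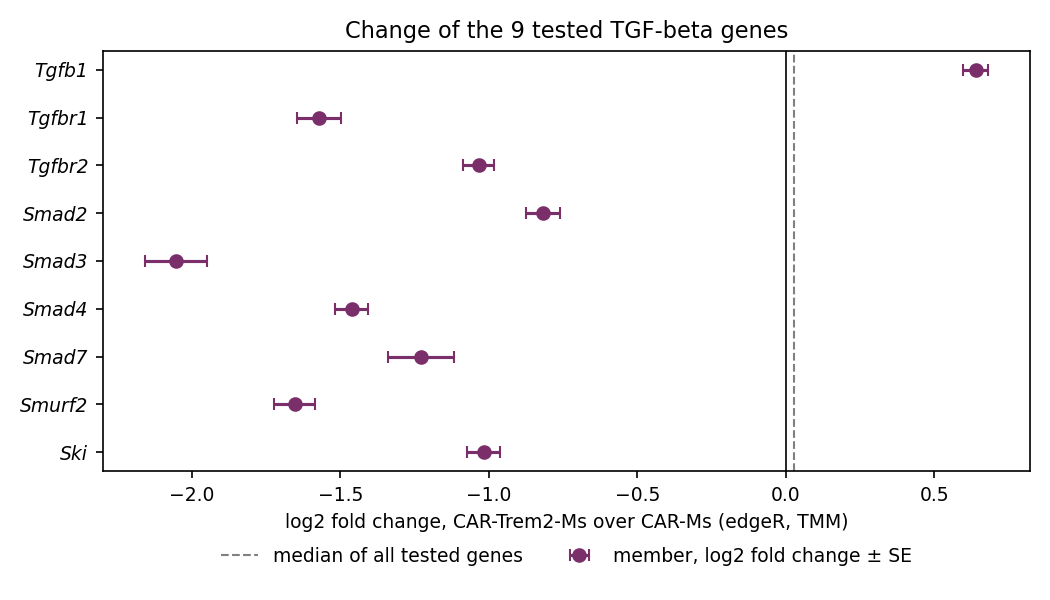
Points give the log2 fold change of CAR-Trem2-Ms over CAR-Ms from the edgeR fit for the 9 tested genes, whiskers give the standard error, and the dashed line marks the median of all genes tested, 0.03. Tgfb1 lies to the right of the line at 0.64, and the other 8 genes lie to the left of it, from −0.82 (Smad2) to −2.05 (Smad3). On TPM, Tgfb1 stood at −0.08.

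Promoter sequence is shown for 3 of these genes to set the gene that rose on counts beside the gene that fell furthest and the ligand-binding receptor. The 250 bases upstream of the start site were taken from RefSeq (GRCm38.p6), on the strand of the gene and 5′ to 3′, and 7 of the 10 genes were matched (all but Smad2, Smad4 and Smad7). Capitals mark the GC box GGGCGG, the motif of SP1 family factors that is common in promoters of broadly expressed genes, and the SMAD box CAGAC, the short element that SMAD3 and SMAD4 can bind, each searched on both strands. The windows are chr7:25686752-25687001 (Tgfb1, plus strand), chr9:63757995-63758244 (Smad3, minus strand) and chr9:116175364-116175613 (Tgfbr2, minus strand).
Tgfb1: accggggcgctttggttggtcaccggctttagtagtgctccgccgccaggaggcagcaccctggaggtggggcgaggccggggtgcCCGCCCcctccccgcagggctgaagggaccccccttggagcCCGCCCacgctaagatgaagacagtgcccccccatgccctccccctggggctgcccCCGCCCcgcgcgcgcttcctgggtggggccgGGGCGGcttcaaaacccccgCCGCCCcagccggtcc
Smad3: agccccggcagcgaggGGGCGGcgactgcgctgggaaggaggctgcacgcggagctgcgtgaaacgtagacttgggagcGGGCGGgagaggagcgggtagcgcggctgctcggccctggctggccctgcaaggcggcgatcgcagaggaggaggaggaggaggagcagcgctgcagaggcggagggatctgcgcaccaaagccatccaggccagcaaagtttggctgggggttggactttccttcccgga
Tgfbr2: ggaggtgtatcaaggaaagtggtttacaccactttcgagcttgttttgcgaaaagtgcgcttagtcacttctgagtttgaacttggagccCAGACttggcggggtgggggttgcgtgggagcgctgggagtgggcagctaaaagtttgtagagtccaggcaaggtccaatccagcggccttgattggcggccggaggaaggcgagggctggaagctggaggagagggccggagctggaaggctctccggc
The Tgfb1 window held 5 GC boxes and the Smad3 window 2, both without a SMAD box, and the Tgfbr2 window held 1 SMAD box and no GC box, so no match to one motif overlapped a match to the other. Among the other matched genes, Ski had 5 GC boxes, Smurf2 7, Tgfbi 1, and Tgfbr1 2 in the first of its windows and 0 in the second. A SMAD box was found once in the Smurf2 window, 2 times in that of Tgfbi and once in the second window of Tgfbr1. Of 32851 mouse promoter windows of the same length, 32.7% held a GC box and 42.2% a SMAD box. The GC content of the windows was 87.6% for Ski, 82.0% for Smurf2, 75.2% for Tgfb1, 74.8% and 52.8% for the windows of Tgfbr1, 69.2% for Smad3, 62.4% for Tgfbi and 58.4% for Tgfbr2, against a median of 52.4% over all windows. A match describes letters only and is not evidence of binding.

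Tgfb1 (ENSMUSG00000002603, chromosome 7, 25687002 to 25705077, plus strand, mm10) encodes TGF-beta 1, the main isoform of immune cells. Its level was 110.9, 115.6 and 112.1 CPM in CAR-Ms, against 180.1, 173.4 and 173.5 CPM in CAR-Trem2-Ms. All 3 CAR-Trem2-Ms samples were higher than all 3 CAR-Ms samples, and the distance between the groups was far larger than the spread within either. The means were 112.9 ± 2.44 and 175.7 ± 3.81 CPM (SD, n = 3), a rise of 1.56-fold (log2 fold change 0.64 ± 0.04 SE, edgeR adjusted p = 2.1e-14), above that of 72.0% of the genes tested. The direction depends on the scale. On TPM, Tgfb1 stood at 91.7, 99.0 and 91.9 in CAR-Ms and at 90.2, 88.7 and 87.4 in CAR-Trem2-Ms. The limma test on log2(TPM + 1) gave a log2 difference of −0.08 with an adjusted p of 0.115, which does not pass the threshold. The median of all genes on that scale was −0.63, so Tgfb1 lay 0.55 above the median gene on TPM and 0.61 above it on counts. The TPM of the groups did not overlap, with every CAR-Trem2-Ms sample the lower. The authors' deposited table gives Tgfb1 a log2 fold change of −0.09, built from TPM means. Its adjusted p there is 3.21e-43, from a tool that the sources used here do not name. The DESeq2 test on counts gave a log2 fold change of 0.61 with an adjusted p of 2.84e-43. The deposited p therefore cannot be read as that of a fall.

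Tgfbr2 (ENSMUSG00000032440, chromosome 9, 116084293 to 116175360, minus strand) encodes the receptor that captures the ligand. It was counted at 149.0, 147.9 and 142.4 CPM in CAR-Ms and at 68.1, 78.8 and 68.4 CPM in CAR-Trem2-Ms. The second CAR-Trem2-Ms sample was the highest of its group and still lay well under the lowest CAR-Ms sample. From 146.4 ± 3.53 to 71.8 ± 6.12 CPM (SD, n = 3), Tgfbr2 fell 2.05-fold (log2 fold change −1.03 ± 0.05 SE, edgeR adjusted p = 1.08e-16).

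Tgfbr1 (ENSMUSG00000007613, chromosome 4, 47353222 to 47414931, plus strand) encodes the kinase that passes the signal to SMAD2 and SMAD3. CAR-Ms held 72.2, 71.4 and 76.3 CPM of it and CAR-Trem2-Ms 25.7, 25.1 and 23.2 CPM. Samples within a group were close, and the groups lay far apart. Tgfbr1 fell 2.97-fold, from 73.3 ± 2.67 to 24.7 ± 1.31 CPM (SD, n = 3; log2 fold change −1.57 ± 0.07 SE, edgeR adjusted p = 1.99e-17). In all, 5.18% of tested genes had a lower fold change than Tgfbr1, and 13.6% had a lower one than Tgfbr2.

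Smad2 (ENSMUSG00000024563, chromosome 18, 76241580 to 76310963, plus strand) and Smad3 (ENSMUSG00000032402, chromosome 9, 63646767 to 63757994, minus strand) encode the SMADs that the TGF-beta receptor phosphorylates. Smad2 was counted at 106.8, 101.2 and 100.5 CPM in CAR-Ms and at 55.8, 56.2 and 62.7 CPM in CAR-Trem2-Ms. Its groups did not overlap, and its fall of 1.76-fold (log2 fold change −0.82 ± 0.06 SE, edgeR adjusted p = 2.42e-13) was the smallest among the 8 genes that fell. Smad3 was counted at 48.9, 51.3 and 52.3 CPM in CAR-Ms and at 12.7, 9.67 and 14 CPM in CAR-Trem2-Ms. The second CAR-Trem2-Ms sample was the lowest of all 6 for this gene. Smad3 fell 4.15-fold, from 50.8 ± 1.76 to 12.1 ± 2.22 CPM (SD, n = 3; log2 fold change −2.05 ± 0.10 SE, edgeR adjusted p = 1.24e-16), and 2.25% of the genes tested had a lower fold change. When each sample was left out in turn, the log2 fold change of Smad3 stayed between −2.17 and −1.93.

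Smad4 (ENSMUSG00000024515, chromosome 18, 73639009 to 73703780, minus strand) encodes the common SMAD, which joins the SMADs of both the TGF-beta and the BMP branch. It was counted at 127.6, 129.8 and 129.4 CPM in CAR-Ms and at 47.4, 43.7 and 48.9 CPM in CAR-Trem2-Ms. The CAR-Ms samples were within a few CPM of each other. Smad4 fell 2.76-fold, from 128.9 ± 1.19 to 46.7 ± 2.69 CPM (SD, n = 3; log2 fold change −1.46 ± 0.05 SE, edgeR adjusted p = 8.67e-20), and 6.30% of the genes tested had a lower fold change.

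The inhibitors were also lower. Smad7 (ENSMUSG00000025880, chromosome 18, 75367529 to 75395935, plus strand) encodes the inhibitory SMAD that blocks the type I receptor and is itself a classical target of the pathway. It was counted at 32.7, 29.2 and 33.7 CPM in CAR-Ms and at 12.5, 13.4 and 14.9 CPM in CAR-Trem2-Ms, a fall of 2.34-fold (log2 fold change −1.23 ± 0.11 SE, edgeR adjusted p = 5.14e-11). Smad7 had the largest standard error of the 9 genes, and its groups were still well separated. Smurf2 (ENSMUSG00000018363, chromosome 11, 106820066 to 106920715, minus strand) encodes the ubiquitin ligase that SMAD7 brings to the receptor. It was counted at 87.4, 92.1 and 90.0 CPM in CAR-Ms and at 30.8, 27.2 and 27.5 CPM in CAR-Trem2-Ms, a fall of 3.15-fold (log2 fold change −1.65 ± 0.07 SE, edgeR adjusted p = 9.2e-19). The predicted gene Gm27322 overlaps exons of Smurf2 on the same strand, so reads of the pair cannot be told apart. Ski (ENSMUSG00000029050, chromosome 4, 155154075 to 155222592, minus strand) encodes a proto-oncogene product that recruits repressors to SMAD complexes. CAR-Ms held 121.6, 118.3 and 122.8 CPM of Ski and CAR-Trem2-Ms 62.6, 61.8 and 54.9 CPM, a fall of 2.02-fold (log2 fold change −1.02 ± 0.06 SE, edgeR adjusted p = 5.36e-16). Among the inhibitors Smurf2 had the lowest fold change on counts, and 4.46% of the genes tested had a lower one; with length and GC content in the fit, Smad7 (−1.50) lay below Smurf2 (−1.29).

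Tgfbi (ENSMUSG00000035493, chromosome 13, 56609523 to 56639562, plus strand) was close to absent in both groups. Its reads were 10, 1 and 1 in CAR-Ms, against 0, 6 and 5 in CAR-Trem2-Ms, too few for the filter of the test. That is 12 reads in the 44.66 (in 1e6) counts of CAR-Ms, or 0.269 per 1e6 (95% exact Poisson interval 0.139 to 0.469, counting error only), and 11 reads in the 34.59 (in 1e6) counts of CAR-Trem2-Ms, or 0.318 per 1e6 (0.159 to 0.569). The groups overlapped, and no difference was detectable at this depth. CAR-Ms replicate 1 gave 10 of the 12 reads. It also had the most reads of the neutrophil genes Ngp and Ltf among CAR-Ms. They stood at 10.65 and 7.35 CPM there, against 6.87 and 3.86 in replicate 2 and 4.87 and 2.96 in replicate 3. Camp, S100a8, S100a9 and Retnlg were also highest there, but Mpo and Cxcr2 were highest in replicate 3 (9 and 13 reads). Elane and Ly6g had at most 1 read per CAR-Ms sample. In CAR-Trem2-Ms, Ngp had 11, 8 and 8 reads and Ltf 6, 9 and 4. The part of neutrophil RNA in the Tgfbi value was not tested. The authors' deposited table lists Tgfbi at a log2 fold change of −0.25 with an adjusted p of 0.85.

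Levels can be compared between genes on TPM, which is scaled for gene length. In CAR-Ms, Tgfb1 and Smad2 stood highest, at 94.2 ± 4.15 and 88.9 ± 7.06 TPM (SD, n = 3), with ranges that overlapped. Smad4 followed at 77.5 ± 1.18, then Tgfbr2 at 49.4 ± 0.96, Smurf2 at 43.7 ± 1.01, Ski at 35 ± 0.59, Tgfbr1 at 21.4 ± 1.42, Smad3 at 17.1 ± 1.59 and Smad7 at 12.6 ± 1.68 TPM. No other neighbours in this order overlapped. In CAR-Trem2-Ms the ligand stood alone at the top, at 88.8 ± 1.41 TPM, and the next gene, Smad2, reached 29.2 ± 4.68 TPM. Below it, Smad4 (14.4 ± 0.46) and Tgfbr2 (13.2 ± 1.54) overlapped, Ski was at 10.7 ± 0.74 and Smurf2 at 7.26 ± 0.06, Smad7 (5.18 ± 1.19) and Tgfbr1 (4.40 ± 0.31) overlapped, and Smad3 was lowest of the tested genes at 2.46 ± 0.28 TPM. Tgfbr2 stood above Tgfbr1 and Smad2 above Smad3 in both groups on this scale. The limma test on log2(TPM + 1) called 64.2% of the genes it tested lower, and the same test called all 8 genes that were lower on counts.

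The sizes of these changes moved with the correction used, and the directions of the 8 lower genes did not under TMM, upper quartile, total count and TPM scaling and a fit that took account of transcript length and GC content. Fold changes across the transcriptome followed length and base composition: the median log2 fold change on counts was 0.44 for genes with a longest transcript of 204 to 2224 bases and −0.43 for those of 4766 bases or more, and it was −0.31 in genes with a transcript GC content of 31.0% to 44.8% and 0.50 in those of 54.6% to 74.7%. Tgfb1, at 2573 bases, is among the shorter genes, and Tgfbr1, Tgfbr2, Smad2, Smad3, Smurf2 and Ski are all in the longest of these classes. With length and GC content in the fit, all 9 genes kept their call and direction. However, Smad2 shrank to a log2 fold change of −0.22 (edgeR adjusted p = 1.0e-03), Tgfbr2 to −0.58 and Tgfb1 to 0.36. The median of all genes in that fit was −0.07. Relative to it, Smad2 lay at −0.16, Tgfbr2 at −0.51 and Tgfb1 at 0.43. Under the same correction Smad3 stood at −1.98, Smad7 at −1.50, Smad4 at −1.49, Smurf2 at −1.29, Tgfbr1 at −1.10 and Ski at −1.04. On log2(TPM + 1) the falls were larger than on counts for 7 of the 8 genes. They were −2.44 for Smurf2, −2.39 for Smad3, −2.35 for Smad4, −2.05 for Tgfbr1, −1.84 for Tgfbr2, −1.62 for Ski and −1.58 for Smad2. Smad7 stood at −1.15. The added 1 shrinks the changes of low genes. From plain TPM means, Smad7 stood at −1.28, beyond its −1.23 on counts, Smad3 at −2.80 and Smurf2 at −2.59. The median of all genes on log2(TPM + 1) was −0.63, and all 8 genes were below it, from −1.81 relative to it for Smurf2 to −0.52 for Smad7.

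**Figure D3:**
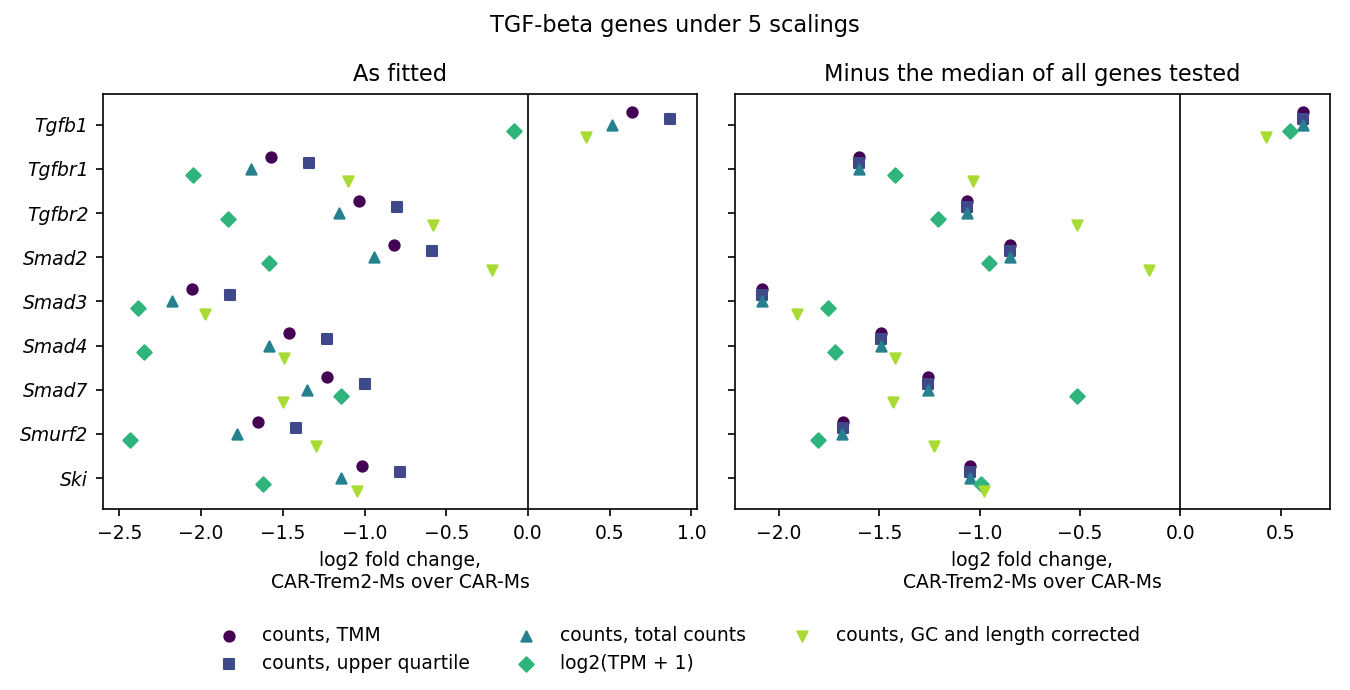
Symbols give the log2 fold change of CAR-Trem2-Ms over CAR-Ms for the 9 tested TGF-beta genes under 5 scalings, as fitted on the left and after subtracting the median of all tested genes on the right. Tgfb1 is above 0 under 4 scalings and at −0.08 on TPM, and lies to the right of 0 in every case once the median is subtracted; Smad2 comes closest to 0 among the other genes, at −0.22 with the correction for GC content and length.

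Ratios between genes within a sample were compared for 5 pairs, since 1 scaling factor per sample leaves them unchanged. A fixed length per gene would shift the level of a ratio but not its difference between the groups. The fit with length and GC content corrects each sample by gene, so it does move that difference. Some differences from TPM also departed from those on CPM, such as 1.5 against 0.85 for Smad7 to Smad3. The cause of these departures was not tested. The ratio of Tgfb1 to Tgfbr2 in CPM was 0.744, 0.782 and 0.787 in CAR-Ms, against 2.64, 2.2 and 2.54 in CAR-Trem2-Ms. Counts are not scaled for length, so the change in the ratio is what can be read, and it was higher in every CAR-Trem2-Ms sample, a difference of 1.67 on the log2 scale (1.83 from TPM, 0.94 with length and GC content in the fit). Smad7 to Smad3, the inhibitory over the signal-carrying SMAD, was 0.669, 0.570 and 0.644 in CAR-Ms, against 0.980, 1.38 and 1.07 in CAR-Trem2-Ms. The log2 difference was 0.85, with 1.5 from TPM and 0.48 with length and GC content in the fit. Ski to Smad3 was 2.49, 2.30 and 2.35 in CAR-Ms, against 4.93, 6.40 and 3.92 in CAR-Trem2-Ms, a log2 difference of 1.07. Smad3 fell furthest of the 9 genes on counts, so nearly any gene stands higher relative to it: 94.6% of all tested genes did so in every CAR-Trem2-Ms sample. Beside Smad2, which fell least on counts (−0.82), the inhibitors had the lower fold changes on that scale (Smad7 −1.23, Ski −1.02). The order was kept with length and GC content in the fit (Smad2 −0.22, Smad7 −1.50, Ski −1.04). On log2(TPM + 1) it was not: Smad2 stood at −1.58, Smad7 above it at −1.15 and Ski close to it at −1.62. Tgfbr1 to Tgfbr2 was 0.484, 0.483 and 0.536 in CAR-Ms, against 0.378, 0.318 and 0.340 in CAR-Trem2-Ms, a log2 difference of −0.54 (−0.37 from TPM). Smurf2 to Smad7 was 2.67, 3.15 and 2.67 in CAR-Ms, against 2.47, 2.03 and 1.84 in CAR-Trem2-Ms, a log2 difference of −0.43 (−1.29 from TPM), and the sign turned to 0.20 with length and GC content in the fit. None of the 5 ratios overlapped between the groups, which was also true of the ratios of 95.3% of all tested genes to Smad3, 85.8% to Tgfbr2 and 86.6% to Smad7. The exact two-sided permutation test gave p = 0.1 for each, which is the smallest p that 3 samples against 3 can give, and 0.1 after adjustment over the 5.

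**Figure D4:**
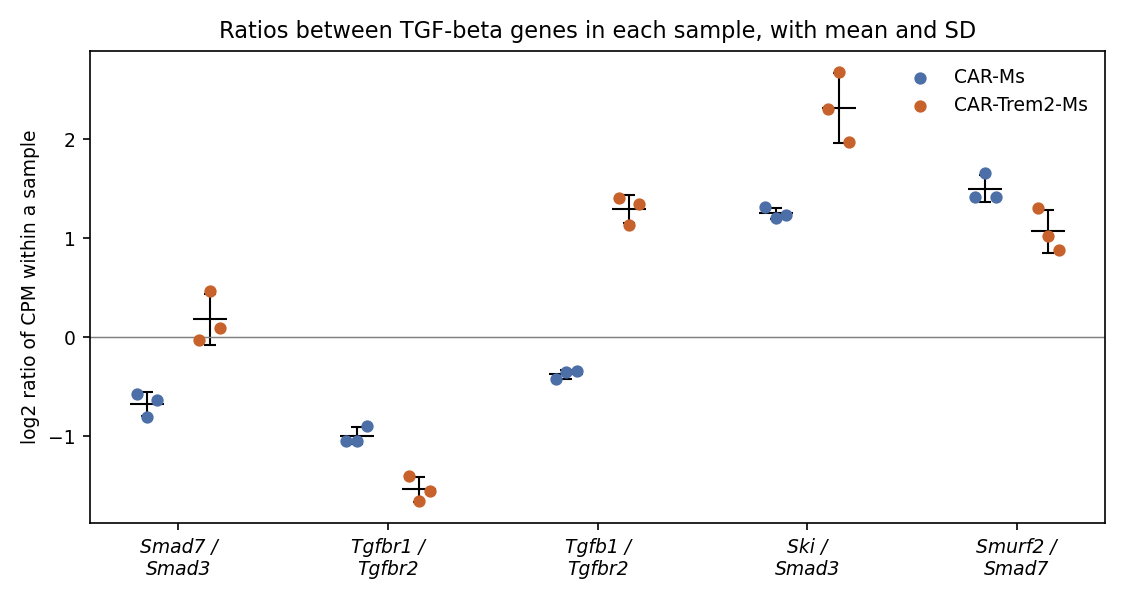
The vertical axis is the log2 ratio of CPM between 2 TGF-beta genes within a sample, with 1 point per sample, the mean as a bar and the SD as whiskers, for CAR-Ms (blue) and CAR-Trem2-Ms (orange). The points of the groups do not overlap for any ratio, and the mean of Tgfb1 to Tgfbr2 rises from −0.38 to 1.29. CPM is not scaled for length, so the change can be read but the position relative to 0 cannot. On TPM, Tgfb1 stood above Tgfbr2 in every sample of both groups.

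Around these genes, 5 lists of the wider pathway and the KEGG TGF-beta pathway annotation of the deposited table were described, without the 10 genes themselves. The lists share some genes, and 112 of their 179 genes were tested: 32 were higher and 67 lower, with a median log2 fold change of −0.40. On TPM the split was 15 higher and 78 lower of 105 tested. The background was 40.9% higher and 40.1% lower of all genes tested on counts, and 17.5% higher and 64.2% lower on TPM. The TPM split thus lay nearer to its own background than the split on counts. The median, relative to that of all genes, differed less: −0.43 on counts and −0.41 on TPM. It was −0.28 with length and GC content in the fit.

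Of 33 other ligands and activators, 12 were tested, and 5 were higher and 5 lower (median log2 fold change −0.03). The median became 0.20 under upper quartile scaling, −0.34 on TPM and −0.45 with length and GC content in the fit. Relative to the median of all genes it was −0.06 with TMM or upper quartile scaling, 0.29 on TPM and −0.39 in that fit. Integrins that free TGF-beta from its latent form moved in both directions. Itgb5, the beta 5 subunit, rose from 63.6 ± 2.18 to 126.2 ± 6.95 CPM (log2 fold change 0.99), while its partner Itgav fell from 79.5 ± 3.08 to 33.5 ± 2.13 CPM (−1.24) and Itgb1 from 302.3 ± 5.78 to 137.7 ± 1.44 CPM (−1.14). Ltbp4, which anchors latent TGF-beta in the matrix, rose from 3.99 ± 0.29 to 7.14 ± 1.38 CPM (0.84) and stood at −0.17 on TPM (adjusted p = 0.521 by limma). Exons of Itgav overlap the antisense gene Gm13684, and the sources used here do not say that counting used strand.

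Of 15 other receptors of the superfamily and their accessories, 11 were tested, and 1 was higher and 8 lower (median log2 fold change −0.77). Bmpr2, the type II receptor of the bone morphogenetic proteins, fell from 123.7 ± 4.48 to 27.1 ± 3.76 CPM (−2.20). Cd109, a co-receptor that restrains TGF-beta signalling, fell from 62.8 ± 3.42 to 15.1 ± 0.83 CPM (−2.05). The gene that rose was Acvrl1, the type I receptor ALK1, from 6.89 ± 1.58 to 23.8 ± 2.83 CPM (1.80), and its exons overlap those of Gm16031 on the opposite strand.

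Of 28 other SMADs and SMAD cofactors, 24 were tested, and 5 were higher and 17 lower (median log2 fold change −0.69, and −0.43 with length and GC content in the fit). Smad1, a carrier of the BMP branch, fell from 51.5 ± 1.83 to 12.6 ± 0.31 CPM (−2.04), close to the change of Smad3. Zfyve9, also called SARA, which presents SMAD2 and SMAD3 to the receptor, fell from 7.63 ± 1.34 to 1.97 ± 0.32 CPM (−1.96). Tab1, a partner of the kinase TAK1 in the branch that does not use SMADs, rose from 11.1 ± 1.85 to 48.9 ± 0.47 CPM (2.14). Other genes of that branch in the list fell on counts: Map3k7, the gene of TAK1 (−0.73), Tab2 (−0.65) and Traf6 (−1.47). They were chosen for mention after their values were seen. Zeb2, a repressor that binds SMADs, rose from 138.9 ± 6.16 to 222.4 ± 5.56 CPM (0.68) and stood at −0.08 on TPM (adjusted p = 0.197 by limma). Zfyve9 and Zeb2 overlap the opposite-strand genes 3110021N24Rik and Zeb2os.

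Of 27 other genes listed as negative regulators, 25 were tested, and 7 were higher and 17 lower (median log2 fold change −0.38). The list is mixed: Rnf111, Usp4, Usp15 and Uchl5, all lower on counts, and Otub1, which was higher, are also reported to promote signalling. Its counts are therefore not counts of inhibitors alone. With length and GC content in the fit, 6 of the list were higher and 14 lower. The median was then −0.15, or −0.09 relative to that of all genes. Upper quartile scaling gave 8 higher, 12 lower and a median of −0.15, or −0.41 relative to that of all genes, as with TMM. Skil, the close relative of Ski, fell from 341.3 ± 0.56 to 107.1 ± 2.95 CPM (−1.67). Nedd4l, a ubiquitin ligase of SMADs and receptors, fell from 11.1 ± 1.32 to 2.60 ± 1.03 CPM (−2.09), and Zfp451, a SMAD co-repressor, from 202.8 ± 8.17 to 50.6 ± 4.24 CPM (−2.0). Usp11, a deubiquitinase reported to stabilise the type I receptor, rose from 3.72 ± 0.23 to 20.2 ± 0.59 CPM (2.44), so its known action is opposite to the name of the list. Ppp1r15a, also called GADD34, which brings a phosphatase to the type I receptor and also acts in the stress response, rose from 404.6 ± 10.5 to 754.2 ± 18 CPM (0.90). Nedd4l overlaps the opposite-strand gene A330084C13Rik and Ppp1r15a overlaps Tulp2.

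Of 35 genes known as targets of TGF-beta or SMADs in some cell type, 25 were tested, and 11 were higher and 9 lower. The median log2 fold change was −0.03 on counts, 0.20 under upper quartile scaling, −0.45 on TPM and −0.21 with length and GC content in the fit. The mean on counts was 0.25. Relative to that of all genes, the list median was −0.06 with TMM or upper quartile scaling, 0.18 on TPM and −0.14 with length and GC content. Myc, a growth gene that TGF-beta represses in epithelium, rose from 3.61 ± 0.28 to 26.2 ± 3.02 CPM (2.86), and Pdgfb, a growth factor for fibroblasts, from 14.5 ± 1.10 to 87.0 ± 4.04 CPM (2.59). Olfml3, a gene of microglia that depends on TGF-beta there, fell from 3.49 ± 0.45 to 0.64 ± 0.46 CPM (−2.49), and Skil is also counted here. The BMP targets Id1 (1.31), Id2 (1.11) and Id3 (1.39), chosen for mention after their values were seen, all rose on counts, and their mean TPM was also higher (36.7 and 57.7 for Id1, 19.5 and 25.4 for Id2, 33.6 and 54.2 for Id3). In the KEGG annotation, 44 of 87 further genes were tested, and 13 were higher and 27 lower (median log2 fold change −0.47). Tnf, the inflammatory cytokine, rose from 101.5 ± 0.22 to 318.4 ± 8.33 CPM (1.65) and Rock1, a kinase of the cytoskeleton, fell from 274.2 ± 4.18 to 60.2 ± 6.28 CPM (−2.18) in that list.

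**Figure D5:**
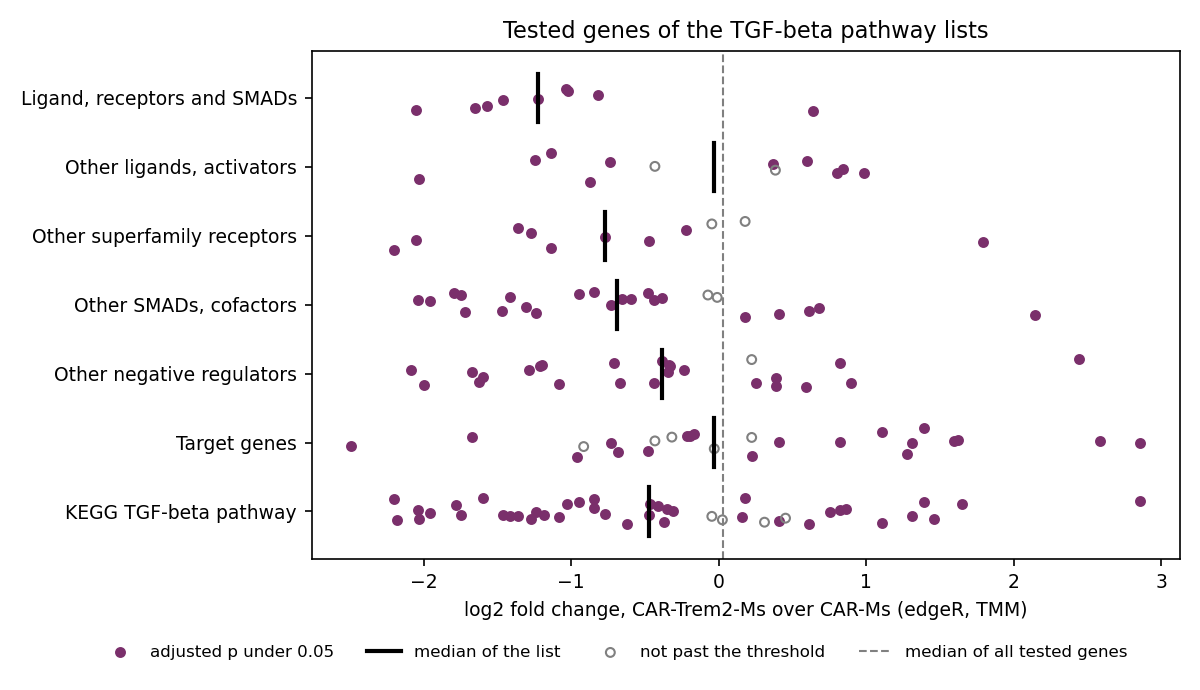
Each row is a list of TGF-beta pathway genes, the horizontal axis is the log2 fold change of CAR-Trem2-Ms over CAR-Ms from the edgeR fit on counts, filled points passed the threshold and open points did not, bars mark the list medians and the dashed line marks the median of all tested genes. The core genes have the lowest median, −1.23, and other receptors, SMADs and the KEGG list lie at −0.77, −0.69 and −0.47. The ligand and target lists lie near the dashed line at −0.03. Upper quartile scaling moved both to 0.20 and the median of all genes to 0.26. With length and GC content in the fit they were at −0.45 (ligands) and −0.21 (targets). Relative to the median of all genes, both were at −0.06 with TMM or upper quartile scaling. On that measure ligands were at 0.29 on TPM and −0.39 in the length and GC fit, and targets at 0.18 and −0.14.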

How the data were processed

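RNA was sequenced from 6 macrophage samples, 3 in each group; per the labels' protocols it was taken up in Trizol and made into libraries with a SMARTER mRNA-Seq kit. Per the file headers, the deposited table holds raw read counts and TPM per gene and sample, a log2 fold change, which was checked to be that of mean TPM between the groups, and the authors' p-value and its adjusted form. Per the submitters' processing notes, the tools were StringTie 1.3.1, HISAT2, Bowtie2 2.2.8 and fastp 0.18.0, with mm10; the counting tool and its strand setting were not given in the sources used here.

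Counts of all genes were fitted with edgeR 4.0.16 (R 4.3.3), using TMM factors, the filterByExpr filter and quasi-likelihood tests, and 11402 genes were tested; p-values were corrected over all of them by Benjamini-Hochberg, with a threshold of 0.05, and a positive fold change means higher in CAR-Trem2-Ms. TPM was tested with limma-trend (limma 3.58.1) on log2(TPM + 1), keeping genes that reached a TPM of 1 in 3 samples or more; fold changes on that scale understate those of low genes. Alternatives were RLE, upper quartile and total-count scaling, 2 other filters, leaving out mitochondrial genes, DESeq2 1.42.0, limma-voom, a correction for GC content and length, a replicate block, leaving out each sample and stricter thresholds. The ratios were also computed from the fit with length and GC content, an alternative chosen after seeing the data. Gene positions come from GENCODE M21 (GRCm38), which matched 21973 of the 22063 identifiers.

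Total counts ranged from 9.8 to 15.91 (in 1e6) per sample. Replicates differed by more than sampling noise (chi-square per degree of freedom 2.19 to 3.34), so each counted as 1. Whether they were separate cultures or animals is not labelled, and p-values cover just the spread among these samples, possibly a technical one. The genes and lists were chosen with earlier results of these data known. All 10 genes are named whatever their values; from each list up to 2 rises and 2 falls of largest fold change are named, among genes past the threshold whose higher group averaged 50 reads or more.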

Additional observations from a re-analysis of the deposited data

How the results depend on the processing

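Of 153 recomputed fold changes of the 9 tested TGF-beta genes, 152 kept their direction and call and 1 reversed: Tgfb1 stood at −0.085 by limma-trend on log2(TPM + 1). Of 373 for the other named genes, 371 kept both, and on the same scale Ltbp4 (−0.17) and Zeb2 (−0.083) reversed; the cause was not tested. By that test, 1890 of all genes were higher and 6946 lower, against 4668 and 4577 on counts. The TGF-beta genes higher numbered 0 by it, against 1, and the list genes higher 15, against 32 (ligands and activators 1 against 5, SMADs and cofactors 1 against 5, negative regulators 3 against 7, KEGG genes 7 against 13). Upper quartile scaling gave 5714 higher and 3606 lower and a median of all genes of 0.26, total counts 4154 and 5096 and −0.10, and the correction for GC content and length 4181 and 4886 and −0.07. With a fold change of at least 2-fold, 2136 genes were higher and 1629 lower, 0 TGF-beta genes were higher, and the list genes numbered 13 higher and 32 lower, since that rule keeps fewer genes. With the replicate block, 4627 genes were higher and 4561 lower, the TGF-beta genes again 1 and 8 and the list genes 32 and 67; the same-numbered samples deviated together with correlations of only 0.03, −0.03 and 0.03, so the numbers were taken as names. With length and GC content in the fit, an alternative chosen after seeing the data for the ratios, the log2 difference of Smurf2 to Smad7 turned from −0.43 to 0.20. Leaving out each sample changed no call of the 9 genes, with a largest edgeR adjusted p of 7.96e-09, for Smad7. Depth limits Tgfbi: without the filter its edgeR log2 fold change was 0.35 with an adjusted p of 0.797.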
